A study of Arabidopsis thaliana with 4 samples.

Results

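The genes described here are the short-chain dehydrogenases that lie side by side on chromosome 2 of Arabidopsis thaliana, from AT2G29290 to AT2G29370. The cluster holds 9 loci, of which 8 had a probe set of their own in the annotation used for the Affymetrix ATH1 array. The array held 22746 probe sets in all besides controls. The loci were taken by position, but the cluster was singled out for the fall of AT2G29290 between sorbitol-fed and sucrose-fed leaves. That fall was the largest among the 7329 probe sets with a single gene that were bright enough to be tested. Differences between sucrose and sorbitol are therefore given for these genes as a description, without a test. AT2G29350 (SAG13), a gene long used as a marker of leaf senescence, had no probe set in the annotation and was not analysed here.

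Short-chain dehydrogenases are a large family of enzymes that reduce carbonyl groups or oxidise alcohols with NAD(H) or NADP(H) as the cofactor. Tropinone reductases, known best from Datura and other tropane alkaloid plants, are members that reduce the ketone tropinone to tropine or pseudotropine. Arabidopsis carries a tandem array of related genes, and the substrates that most of its products use in the leaf are not settled. AT2G29330 bears the symbol TRI, tropinone reductase, in the RefSeq gene table, and the remaining measured genes of the cluster are known there by locus alone.

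All leaves were full-grown source leaves of non-flowering Col-0 wild type plants, grown with a 14 h day at 20 °C and a 10 h night at 16 °C. They were harvested as the day ended, and their petioles took up 2 mM MES buffer in darkness over 13 h. In the control group (n = 2 arrays) the buffer held 100 mM sorbitol and in the treated group (n = 2 arrays) it held 100 mM sucrose, so darkness, detachment and MES were shared by both. Leaves from before the incubation were not analysed here. Nothing in the labels says whether replicates came from separate plants, and p-values then reflect only how far these arrays spread, which may be technical. Values are deposited MAS5 intensities on a linear scale, and a change is the difference of log2 intensity, sucrose minus sorbitol, with SD over 2 arrays.

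Mesophyll markers were bright on each array, and 1 array stood apart in a control. Of 8 mesophyll markers, 5 had a probe set, all at intensities between 363.5 and 5469. In all 5 both sucrose arrays lay below both sorbitol arrays, as in 26.2% of the 13648 probe sets tested, and the median change was -1.75. In the limma fit phosphoribulokinase PRK and the photosystem I subunit PSAN passed (adjusted p = 0.0487 and 0.0497), beside 0.923% of the probe sets tested that passed as lower. Both calls were lost without sorbitol 1, without sorbitol 2 and without sucrose 2, at adjusted p between 0.0645 and 0.268, and with no filter, quantile normalisation or no trend, at adjusted p between 0.0574 and 0.129. Of 8 markers of other cells and organs, the guard cell gene FMA was the 1 measured, at 37.0 to 55.6. Its sucrose arrays also lay below both sorbitol arrays, with a change of -0.33 that did not pass (limma adjusted p = 0.643). In whole leaves fewer cells of a type and less RNA per cell cannot be told apart. For the older GAPDH control set the 3 prime signal exceeded the 5 prime signal, a measure of RNA quality, by 0.20 log2 units on sucrose 2 and by 1.43 to 1.85 on the other arrays. For the newer GAPDH control set this difference was -0.0074 on sucrose 2 and 0.044 to 0.33 on the other arrays, so sucrose 2 stood apart less there. The part of these differences in the values of the cluster was not tested.

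AT2G29290 had an intensity of 657.8 on sorbitol 1 and 612.6 on sorbitol 2, against 18.7 on sucrose 1 and 17.1 on sucrose 2. Each group was tight, and the groups were far apart. The mean log2 intensity was 9.31 ± 0.07 (SD, n = 2) in sorbitol and 4.16 ± 0.09 in sucrose, a change of -5.15, or 35.5-fold lower in sucrose. The change was -5.14 between the arrays numbered 1 and -5.16 between those numbered 2. Its sucrose values remained above 9.3, the brightest value of the 27 Bacillus controls, which match no plant RNA. The filter asked for a mean intensity of 18.6, which its sucrose values straddled, so it was bright enough to be tested through its sorbitol arrays. Among 7329 tested probe sets with a single gene it ranked 1 from the bottom by change, the value for which the cluster was chosen.

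**Figure D1:**
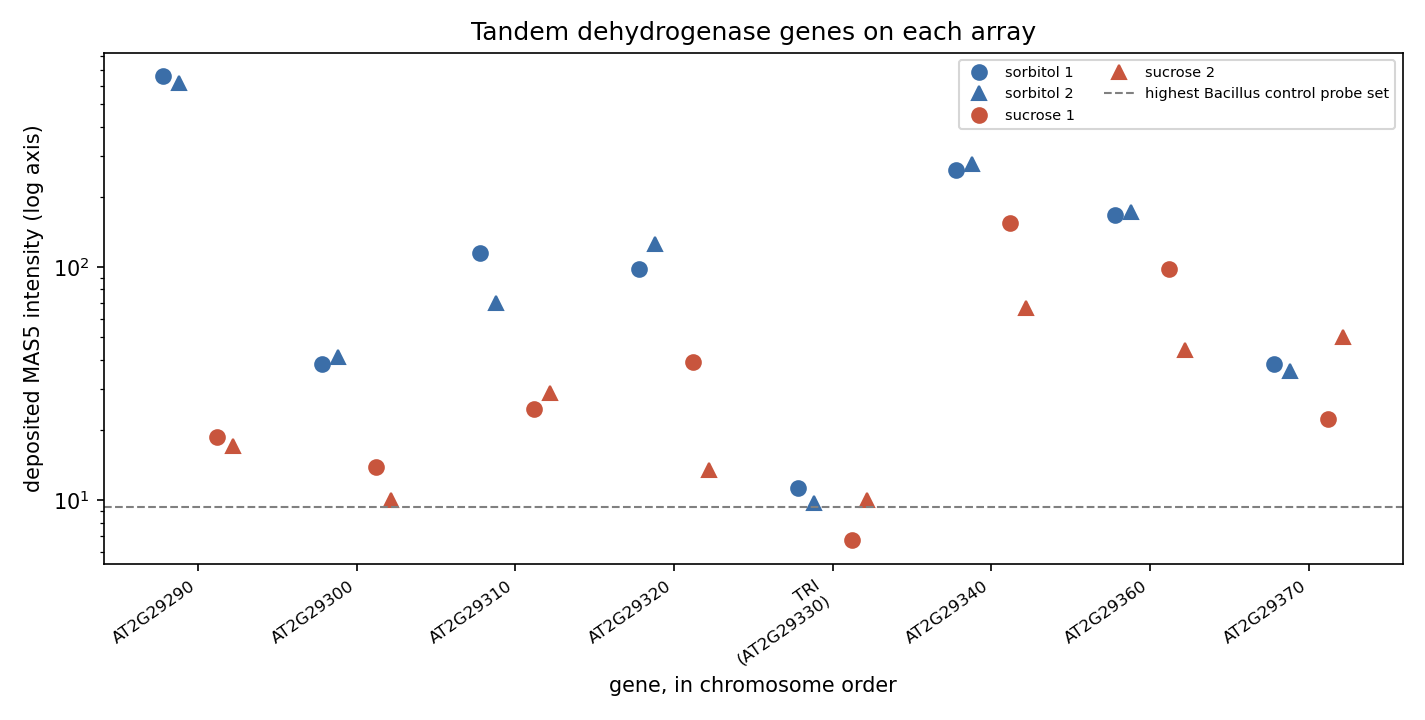
Deposited MAS5 intensity (log axis) of the 8 cluster genes with a probe set, in chromosome order, on sorbitol (blue) and sucrose (red) arrays numbered 1 (circles) and 2 (triangles); the dashed line is the highest Bacillus control value, 9.3. AT2G29290 drops from 612.6 or more to 18.7 or less, 5 further genes have both sucrose arrays below both sorbitol arrays, and TRI and AT2G29370 overlap.

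Lower values in sucrose were not limited to AT2G29290. In 6 of the 8 genes both sucrose arrays lay below both sorbitol arrays, a pattern found in 26.2% of the probe sets tested and in 22.9% of all probe sets. In 0 of the 8 both sucrose arrays lay above, against 26.1% of the probe sets tested. In 4 of the 8, AT2G29290, AT2G29300, AT2G29310 and AT2G29320, the intensity was at least 2-fold lower in both replicate numbers, against 5.52% of the probe sets tested. These shares are given as the background and support nothing about the cluster, which was chosen on this contrast. The median change over the 8 genes was -1.58 (-1.05 in the arrays numbered 1 and -2.004 in those numbered 2), beside 0.02 over all probe sets tested. In the fits without 1 array the median lay between -1.97 and -1.15. The lower end was reached without sucrose 1 and the upper end without sucrose 2.

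AT2G29320 had 97.7 and 125.4 on sorbitol 1 and 2, against 39.2 and 13.5 on sucrose 1 and 2. Its sucrose values were both lower but differed widely from each other, and its change of -2.27 was made of -1.32 in the arrays numbered 1 and -3.22 in those numbered 2. AT2G29310 had 114.8 and 70.3 in sorbitol, against 24.6 and 28.8 in sucrose. Here the sorbitol arrays were the less alike pair, and the change was -1.75, or 3.38-fold lower.

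AT2G29300, next to AT2G29290 on the chromosome, had 38.2 and 41.1 in sorbitol and 13.9 and 10.0 in sucrose. The sucrose values came close to the Bacillus control level, so the size of the change, -1.75, is uncertain at its lower end. With a pseudocount of 5.3 the change of AT2G29300 was -1.39 and that of AT2G29290 was -4.79. AT2G29300 was bright enough to be tested through its sorbitol arrays, since both sucrose values lay under the intensity of 18.6 that the filter on the mean asked for.

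AT2G29340 had 261.2 and 275.0 in sorbitol, against 153.8 and 66.7 in sucrose. AT2G29360 had 166.8 and 172.3 in sorbitol, against 97.9 and 44.0 in sucrose. Both genes were nearly level between the sorbitol arrays and more than 2-fold lower on sucrose 2 than on sucrose 1. Their changes were -1.40 and -1.37, with -0.76 and -0.77 between the arrays numbered 1 and -2.04 and -1.97 between those numbered 2. Without sucrose 2 the changes were -0.80 and -0.79.

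The profiles of AT2G29340 and AT2G29360 were the most alike of the cluster. After each gene was centred on its own mean over the 4 arrays, they lay 0.027 log2 units apart (root mean square over arrays). Over the 21 pairs of tested cluster genes the median distance was 0.89. Each was the nearest of 7328 single-gene probe sets to the other. These loci are not immediate neighbours in the annotation, since AT2G29350 lies between them. Tandem copies can share probe sequence, and cross-hybridisation between these probe sets was not tested because probe sequences were not used here. The pair was picked after its values were seen.

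TRI (AT2G29330) had 11.2 and 9.7 in sorbitol, against 6.7 and 10.0 in sucrose, and was too dim to be tested. The groups overlapped and all values lay near the Bacillus control level, so its change of -0.35 carries no direction. AT2G29370, the last gene of the cluster, had 38.3 and 35.7 in sorbitol, against 22.3 and 49.9 in sucrose. Its sucrose arrays lay on opposite sides of the sorbitol arrays, with -0.78 between the arrays numbered 1 and 0.48 between those numbered 2, and without sucrose 1 its mean change turned to 0.43.

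Ordered by change, AT2G29290 stood apart from AT2G29320, the next gene, by 2.88 log2 units, and the ranges of their changes in the replicate numbers did not overlap. From AT2G29320 through AT2G29310, AT2G29300 and AT2G29340 to AT2G29360 the ranges of each gene and the next overlapped, so neighbours in this order are not set apart. Within each replicate number, though, AT2G29320 lay below AT2G29340 and AT2G29360. AT2G29300 also lay below AT2G29360 in each, by little between the arrays numbered 2 (-2.04 against -1.97). The range of AT2G29370, from -0.78 to 0.48, only just met those of AT2G29360, from -1.97 to -0.77, and AT2G29340, from -2.04 to -0.76. It did not meet the ranges of AT2G29320, AT2G29310 and AT2G29300, and TRI is too dim to be placed. Among 7329 single-gene probe sets ranked from the lowest change, AT2G29320 came 85th, AT2G29310 192nd, AT2G29300 196th, AT2G29340 340th, AT2G29360 365th and AT2G29370 2968th.

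In 7 of the 8 genes the sucrose arrays differed more from each other than the sorbitol arrays did, as in 56.9% of the probe sets tested. The sorbitol arrays lay within 1.5-fold of each other for 7 of the 8 genes, against 73.3% of the probe sets tested, and the sucrose arrays for 4 of the 8, against 63.8%. AT2G29310 was the exception in both counts of 7. On sucrose 2, 3 genes, AT2G29320, AT2G29340 and AT2G29360, were at least 2-fold below sucrose 1, a difference seen in 6.82% of the probe sets tested. AT2G29370 differed as much in the opposite direction, by 1.16 log2 units. This compares single arrays, and sucrose 2 is the array with the low 3 prime to 5 prime difference in the older GAPDH set. The part of that difference in these values was not tested. AT2G29290 differed between the sucrose arrays by -0.13, close to the median of -0.13 over all probe sets tested.

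**Figure D2:**
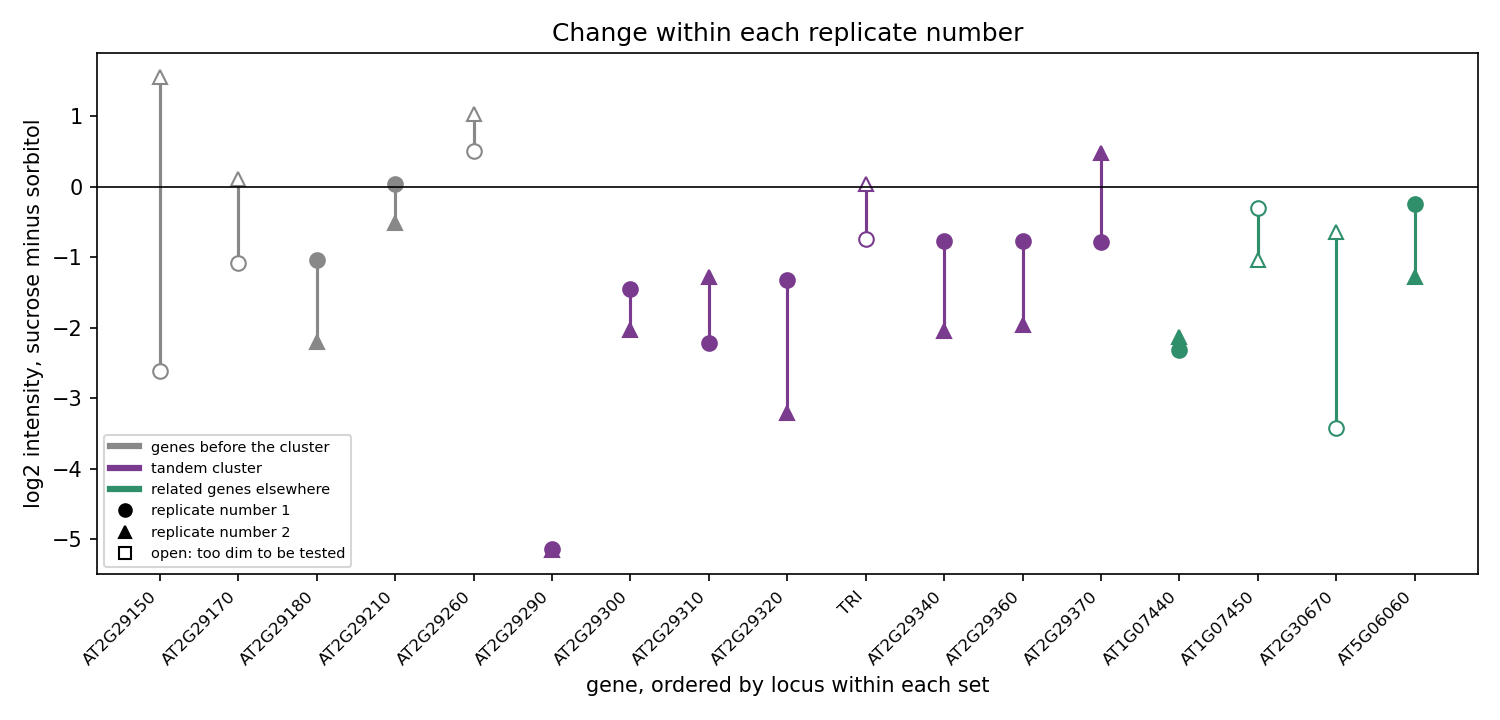
Log2 intensity, sucrose minus sorbitol, for arrays numbered 1 (circles) and 2 (triangles), joined by a line for each gene, with genes before the cluster in grey, the cluster in purple and related genes elsewhere in green; open symbols were too dim to be tested. The pair of symbols of AT2G29290 coincides near -5.15, AT1G07440 has the next tightest pair among the bright genes with a large change, and several dim genes cross 0.

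The next question was whether genes around the cluster differed as well. Of the 10 protein-coding genes on each side in RefSeq order, 5 had a single-gene probe set, all on the side of AT2G29290, and 2 were bright enough to be tested. AT2G29180 had 215.3 and 158.0 in sorbitol, against 104.7 and 34.3 in sucrose, which is lower on both sucrose arrays. Its change of -1.62 was made of -1.04 in the arrays numbered 1 and -2.20 in those numbered 2, beside the cluster median of -1.58. It was thus at least 2-fold lower in both replicate numbers, as were 5.52% of the probe sets tested. The change did not pass in limma (adjusted p = 0.179), and it was -2.43 without sucrose 1 and -0.82 without sucrose 2. AT2G29210 had 139.2 and 148.5 against 143.1 and 103.5, with overlapping groups and a change of -0.24 (limma adjusted p = 0.727). So 0 of the 2 tested neighbours passed, beside 1.29% of all probe sets tested, and 2 genes are too few for this count to answer the question. AT2G29150, AT2G29170 and AT2G29260, themselves tropinone reductase-like, lay between 2.5 and 20.8 on the 4 arrays and were too dim to be tested. AT2G29260, the measured gene nearest to AT2G29290 on that side, had 14.7 and 4.5 in sorbitol and 20.8 and 9.2 in sucrose, so its groups overlapped. The tau glutathione S-transferase genes on the other side had no single-gene probe set and were not analysed here.

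Tropinone reductase-like genes outside the cluster numbered 7 in the list used, and all had a probe set. AT1G07440, on another chromosome, had 552.2 and 417.1 in sorbitol, against 110.4 and 94.8 in sucrose. Both sucrose arrays lay far below both sorbitol arrays, and the mean log2 intensity fell from 8.91 ± 0.29 (SD, n = 2) to 6.68 ± 0.16. This fall, 4.69-fold or -2.23 ± 0.32 SE, passed in the limma fit (adjusted p = 0.0433), beside 0.923% of the probe sets tested that passed as lower. The change itself was steady, with -2.32 between the arrays numbered 1 and -2.14 between those numbered 2. The call was not: the limma adjusted p was 0.260 without sorbitol 1, 0.181 without sorbitol 2 and 0.0749 without sucrose 2, and 0.0253 without sucrose 1. It was also lost with no filter, quantile normalisation or no trend.

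AT5G06060, the other gene of this list that was bright enough, had 277.2 and 374.9 in sorbitol and 234.3 and 154.0 in sucrose. Its sucrose values were below both sorbitol values, and its change of -0.76 did not pass (limma adjusted p = 0.290). Of the 7 genes 1 therefore passed, and 5 were too dim to be tested. AT1G07450 and AT2G30670, named after their values were seen, lay between 9.6 and 23.1 and between 1.5 and 21.0. The median change over the 7 was -0.67, the value of AT1G07450, which was itself too dim to be tested. Over the 2 tested genes it was -1.50, beside 0.02 over all probe sets tested.

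Genes whose profile over the 4 arrays was nearest to that of AT2G29290 came from elsewhere in the genome. Likeness was the root mean square distance of log2 intensities, each gene centred on its mean over the 4 arrays, over 7328 single-gene probe sets. The nearest were AT5G59080 at 0.35, AT3G22210 at 0.54, AT5G18600 (a glutaredoxin) at 0.58, AT1G49200 at 0.64 and AT5G02160 at 0.79. AT5G59080 had 239.6 and 178.0 in sorbitol and 9.5 and 8.9 in sucrose, and AT3G22210 had 581.3 and 701.3 against 43.7 and 30.2. AT5G59080 and AT1G49200, with 4.5 and 7.9 in sucrose, had 1 and 2 sucrose values below the Bacillus control level, and they were bright enough to be tested through their sorbitol arrays, so their distances are uncertain. After dim values were set to 9.3, which was tried once the data had been seen, AT5G59080 lay at 0.37 and AT1G49200 at 0.87, the latter then 7th, and 4 of the 5 nearest were shared. The nearest gene of the cluster itself, AT2G29320, came 90th at 1.53. With genes centred on the sorbitol mean, 4 of the 5 nearest were shared. By change alone the 5 genes, in the order given, ranked 4th, 5th, 2nd, 6th and 11th from the lowest, so the measure mostly followed the size of the change.

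**Figure D3:**
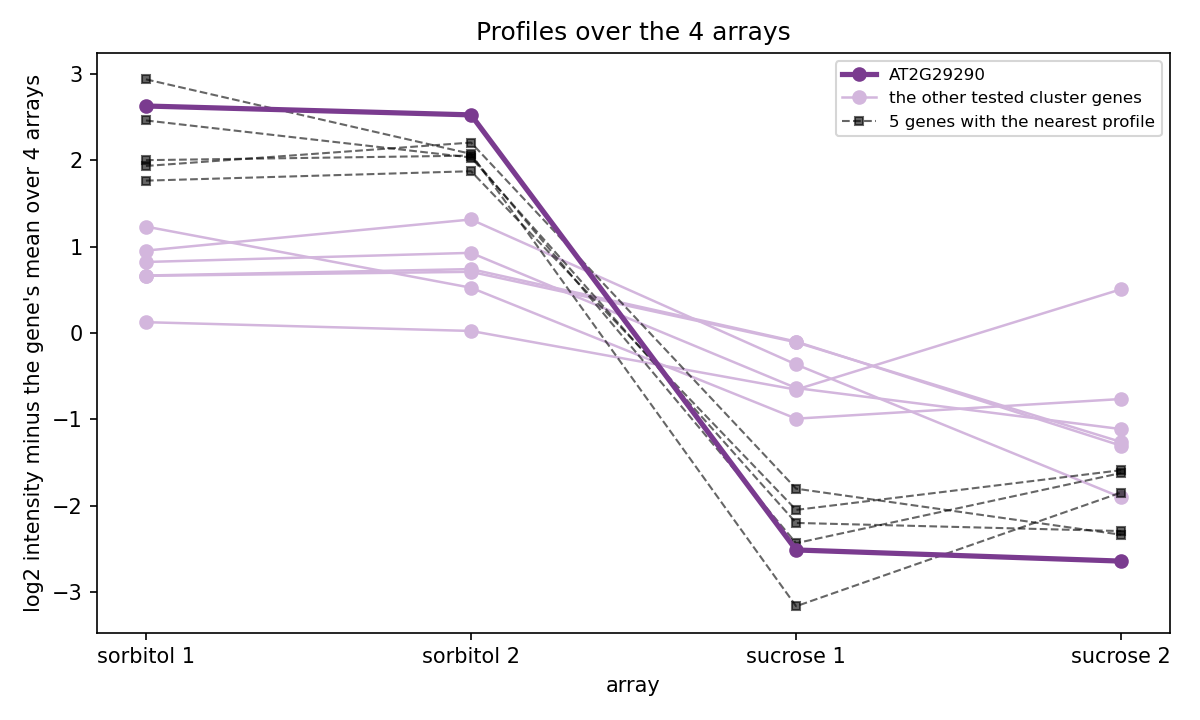
Log2 intensity minus each gene's mean over the 4 arrays, for AT2G29290 (thick line), the other 6 tested cluster genes (pale lines) and the 5 genes with the nearest profile (dashed). The dashed lines run close to AT2G29290, whereas the other cluster genes span a smaller range and spread apart on sucrose 2.

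Since SAG13 lies in the cluster and the leaves were kept in darkness, senescence and sugar starvation genes were set beside it. Of 13 senescence genes 4 were measured and 0 passed in limma, beside 1.29% of all probe sets tested. WRKY6 had 20.5 and 19.0 in sorbitol and 38.6 and 105.3 in sucrose, a change of 1.69 (adjusted p = 0.150), and it passed without sucrose 1 (adjusted p = 0.0310). SAG29 had 2.3 and 108.4 against 44.2 and 623.7, with overlapping groups and a change of 3.39 (limma adjusted p = 0.382). That change was 4.26 in the arrays numbered 1 and 2.52 in those numbered 2, and its sorbitol 1 value lay below the Bacillus control level. WRKY53 and SAG101 had changes of -0.02 and 0.35. The median change over the 4 senescence genes was 1.02, beside 0.02 over all probe sets tested. Of 13 dark and sugar starvation genes the 1 measured was AKINBETA1, a regulatory subunit of the SnRK1 energy-sensing kinase. It had 362.4 and 211.0 against 23.3 and 29.4 and fell by 3.40 (limma adjusted p = 0.0275), beside 0.923% of the probe sets tested that passed as lower. The call of AKINBETA1 was lost without sorbitol 1 (adjusted p = 0.182) and without sorbitol 2 (adjusted p = 0.101).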

How the data were processed

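RNA was measured on 4 Affymetrix ATH1 arrays, 2 per group. The deposited intensities came from MAS5, per the submitters' processing notes, with version and settings not given in the sources used here. The 2 percent trimmed mean was 100.0 on every array, which showed linear values that the authors had already scaled, so no further normalisation was applied. The 64 control probe sets were left out. Intensities were floored at 0.1 and converted to log2. The 13648 probe sets with a mean at or above the 40th percentile (18.6) entered a limma fit (version 3.58.1, R 4.3.3, trend in eBayes, Benjamini-Hochberg adjustment, threshold 0.05). The fit was tried on simulated data with the same spread for every probe set and independent arrays, unlike the real values. Only the size of the estimated changes was checked in that trial. Recovered and false calls were counted but held to no limit, and they do not give the rate of false calls in the real values. Depth has no counterpart here, and the number of arrays limits the precision.

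Genes were named from the platform annotation (13513 probe sets with 1 gene, 503 with several, 8730 with none listed), of which 13436 matched the TAIR10.1 gene table, used for names and gene order only. A gene with several probe sets was represented by the brightest. Named are all cluster genes, every flanking or list gene with a single-gene probe set, and the 5 nearest profiles. In some lists this went beyond a planned limit of 4 genes with the smallest p. The members and lists were chosen with earlier results of these data known. A planned comparison by protein sequence and a promoter motif search were not made, because no sequences were used here.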

Additional observations from a re-analysis of the deposited data

How the results depend on the processing

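The mean change was negative in all 8 cluster genes under the pseudocount, the raised dim values and both scalings, and without each array but sucrose 1, where it was negative in 7 of 8. The filters, the trend and the block cannot alter it. The count of 6 genes with sucrose below sorbitol was 6 to 7 under those settings and 6 to 8 without 1 array, where 33.7% to 41.6% of the probe sets tested did the same. AT2G29290 ranged from -5.21 to -4.79 over the alternatives run. Counts over all probe sets, 50 higher and 126 lower, were 1 and 2 with no filter, 21 and 71 with quantile normalisation, 83 higher with a 60th percentile filter, 196 lower with median centring, 26 and 77 without the trend, and 0 to 407 and 0 to 548 without 1 array, fits in which a single remaining array is taken to vary as the other group does. The share lower among calls was 71.6%, and with all arrays it ran from 51.6% under the block to 77.2% with quantile normalisation. The tropinone reductase-like count of 1 was 0 with no filter, quantile normalisation or no trend (limma adjusted p = 0.0924, 0.0543 and 0.0548 for AT1G07440), and 0 to 1 without 1 array. The sugar starvation count of 1 was 0 with no filter and 0 to 1 without 1 array. The senescence and flanking counts of 0 were 0 to 1 without 1 array. Without 1 array WRKY53 ranged from -0.094 to 0.059. Under a replicate block the counts were 1130 higher and 1206 lower, 2 senescence genes and 1 flanking gene passed, and AT2G29180 had an adjusted p of 0.00622 in limma. RCA, SBPASE and LHCB4.1 passed under the block too (limma adjusted p = 0.00241, 0.00266 and 0.0197), and RCA and SBPASE without sucrose 1 (0.0258 and 0.0226). Deviations of same-numbered arrays correlated at 0.43, and the labels do not say that the number marks a batch, so the block was not used. With 5 flanking genes on each side, 0 passed in each setting run. The causes were not tested.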

Other observations

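Of 16 named short-chain dehydrogenases outside the tropinone reductase-like group, chosen by locus, 4 had a single-gene probe set. PORB, a light-dependent protochlorophyllide oxidoreductase of chlorophyll synthesis, had 356.4 and 247.6 on sorbitol 1 and 2, against 55.4 and 66.3 on sucrose 1 and 2. It fell by 2.29 (limma adjusted p = 0.0458), beside 0.923% of the probe sets tested that passed as lower. The call of PORB was lost without sorbitol 1, without sorbitol 2 and without sucrose 2, where its changes were -2.03, -2.56 and -2.42. It was also lost with no filter (adjusted p = 0.0948), quantile normalisation (adjusted p = 0.0544) and no trend (adjusted p = 0.0548). AT1G24360, the plastid ketoacyl-ACP reductase of fatty acid synthesis, lay in the opposite direction with 374.9 and 402.7 against 749.3 and 637.3, a change of 0.83 that did not pass (limma adjusted p = 0.187). NOL, a chlorophyll b reductase, and AT1G01800 had changes of -0.52 and 0.38 and did not pass.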
